A study of Mus musculus with 8 samples.

Results

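The genes described here are amino acid transporters, taken as 8 solute carrier families that move amino acids, small peptides or related molecules across membranes (Slc1, Slc3, Slc6, Slc7, Slc15, Slc36, Slc38 and Slc43). They were measured in follicular regulatory T (TFR) cells with an intact or a floxed Blimp1 gene. Members were chosen by gene symbol and by a summed raw count of at least 40 over the 8 libraries, a rule that does not use the genotype. Of 24421 genes in the table, 69 matched by symbol and 33 reached the minimum. The member with the lowest sum was Slc3a1 with 41 counts. Just outside lay Slc6a13 with 39 counts, Slc1a2 with 37 and Slc7a11, the cystine exchanger of many activated cells, with 31, while 16 rows had no count at all. One member, Slc7a6os, matched by its symbol only. It is named for lying next to Slc7a6 and is not a transporter gene.

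TFR cells were sorted from spleen as Foxp3-YFP+ CXCR5+ PD1+ cells 36 days after mice of both groups had been challenged 2 times by mouth with peanut plus cholera toxin. There were 4 libraries labelled wildtype (WT) and 4 from mice carrying a Blimp1-flox allele with Foxp3-cre (Blimp1-flox). Foxp3-cre is active in Foxp3-expressing cells at large, so regulatory T cells outside the follicle are also targeted in such mice. Age, sex, the number of floxed alleles, the Cre status of WT mice and the number of mice behind each library are not stated in the labels, so p-values measure the spread between these libraries, which may be technical.

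T cells take up amino acids through a small set of carriers. Heavy chains such as CD98 (Slc3a2) bring light chains of the Slc7 family to the cell surface, where they exchange large neutral or cationic amino acids. Sodium-coupled carriers of the Slc1 and Slc38 families bring in glutamine, alanine and serine. Other carriers sit on the lysosome and release amino acids and peptides from degraded protein, and some of these take part in amino acid sensing by the kinase complex mTORC1. Blimp1, encoded by Prdm1, is a transcriptional repressor, and the comparison addressed how its loss alters TFR cells.

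Libraries held 16425538 to 27595939 counts. Prdm1 was lower in each Blimp1-flox library (7.53 to 16.6 CPM, counts scaled to the TMM-adjusted total of tested genes) than in any WT library (31.8 to 71.0 CPM), with adjusted p = 0.0203 in edgeR. Of 12 genes that define T and TFR cells 11 were matched, and all 11 were expressed in each library, among them Cd4 at 1070.0 to 1352 CPM, Cxcr5 at 391 to 568 CPM and Foxp3 at 55.7 to 105.0 CPM. Of these 11, Il2ra, a receptor chain for interleukin-2, was called lower in Blimp1-flox (102.5 ± 20.0 and 39.0 ± 13.2 CPM, SD, n = 4; log2 fold change -1.39, adjusted p = 0.0311 in edgeR). Foxp3 was at -0.40 with adjusted p = 0.176. WT 4 and Blimp1-flox 3 stood apart from the other libraries on the first and second principal component, respectively. The 15 B cell markers summed to 289 to 1010 CPM in WT, with 14 of the 15 highest in WT 4, and to 241 to 320 CPM in Blimp1-flox. None of the B cell markers was at 0 throughout. Without Cd22, which was similar in both groups, the sum was 122 to 779 CPM in WT and 73.7 to 79.9 CPM in Blimp1-flox. Myeloid markers summed to 35.1 to 54.1 CPM in WT and 27.4 to 118 CPM in Blimp1-flox, and pancreas acinar markers to 33.2 to 71.3 and 51.8 to 107 CPM. Much of the pancreas sum was Cela1, at 27.5 to 34.4 CPM in WT and 39.8 to 67.3 CPM in Blimp1-flox. The acinar genes Cela2a, Pnlip and Cel were at 0 in WT 1, WT 3 and Blimp1-flox 4, and at 0.669 to 9.86 CPM in the other libraries.

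The 33 members together made up 0.268% to 0.293% of the raw counts in the WT libraries and 0.25% to 0.282% in the Blimp1-flox libraries. Levels of different genes were compared as CPM per kilobase of exon, which corrects for gene length. On this scale the order was led by Slc1a5 (ASCT2, a neutral amino acid and glutamine exchanger) with a mean of 231 over the 8 libraries. Slc3a2, the CD98 heavy chain, followed with 173. The third was Slc7a10, the light chain Asc-1, which exchanges small neutral amino acids and is best known from brain and fat, with 124. Next came Slc38a2 (SNAT2, 52.9) and Slc38a10 (47.9), and the light chain genes Slc7a6 (17.7) and Slc7a5 (LAT1, 15.1) had ranks 8 and 10 of 33. Slc38a5, Slc7a3, Slc3a1 and Slc7a8 (LAT2) were lowest with 0.0855 to 0.156. These 4 did not pass the filter on low counts and were not tested. The order of the leading genes was not the same in each library. In WT 1 Slc3a2 (267.6) was above Slc1a5 (211), and in WT 4 Slc3a2 (126.8) was below Slc7a10 (141), while the other 6 libraries had the order of the means.

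**Figure D1:**
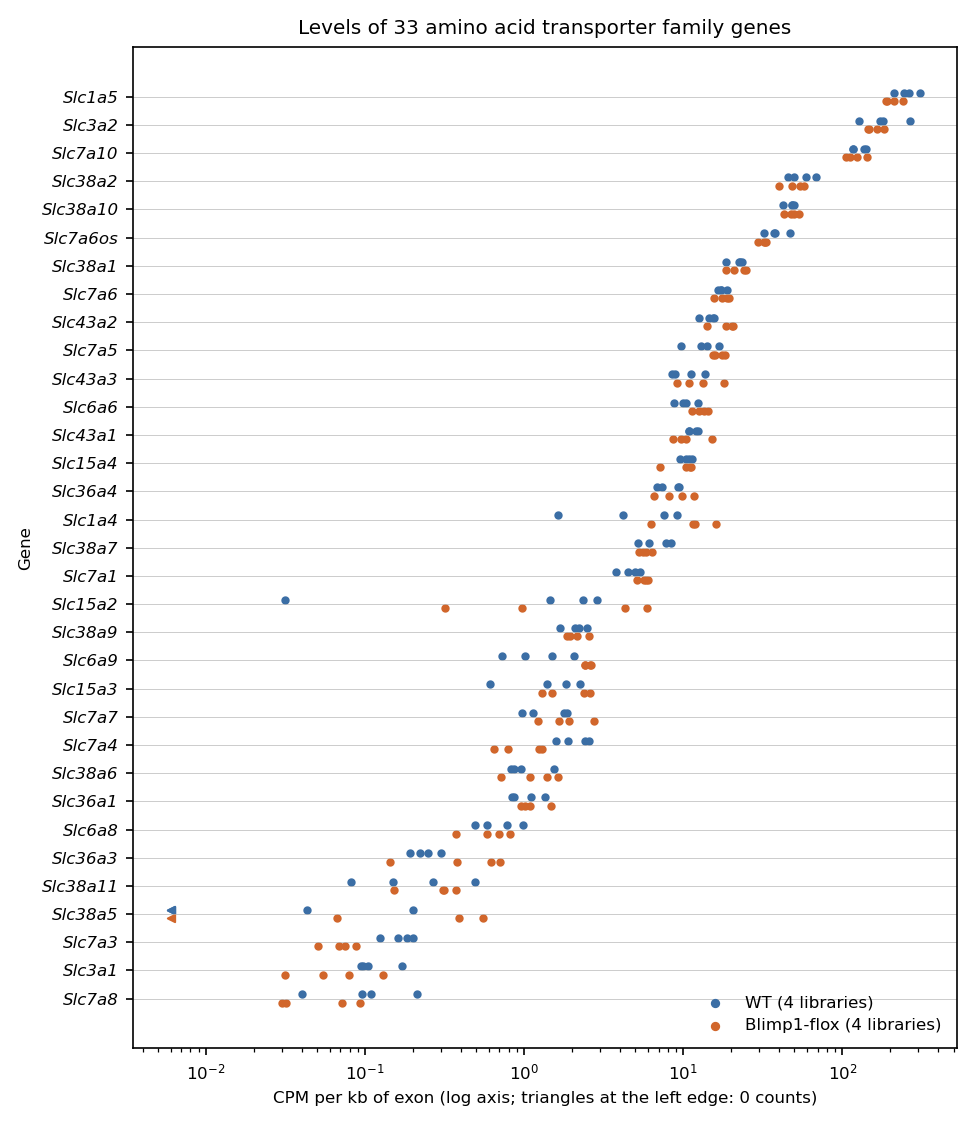
CPM per kilobase of exon (log axis) for each of the 33 members, with 1 point per library, WT in blue and Blimp1-flox in orange, and triangles at the left edge for libraries with 0 counts. Slc1a5, Slc3a2 and Slc7a10 lie above 100 in each library, and Slc15a2 is spread over the widest range.

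The comparison of genotypes found no member that passed. Of 29 tested members, 0 were called by the quasi-likelihood test of edgeR at an adjusted p under 0.05, beside 0.501% of all 12363 tested genes (62 genes). The lowest adjusted p among members was 0.104. At an unadjusted p under 0.05 there were 8 members, which is 27.6% of those tested beside 16.2% of all tested genes. Of these, 5 had higher means in Blimp1-flox (17.2%, beside 7.11% of all genes) and 3 had lower means (10.3%, beside 9.05%). The 3 lower ones were Slc7a4, Slc1a5 and Slc7a6os, and Slc7a6os is not a transporter gene. The count of 8 members became 4 without WT 4 (13.8%, beside 13.0% of all genes). It was 5 (17.2%) without WT 2, without Blimp1-flox 3 and without Blimp1-flox 4, beside 11.0%, 16.6% and 9.98% of all genes. With the B cell score in the model 0 of these 8 remained under 0.05. Of the 15 markers in that score, 10 were lower in each Blimp1-flox library than in any WT library. The score is thus confounded with genotype, and fits that include it cannot tell the effects of B cells and genotype apart. The 2 members under 0.05 there were Slc3a2 and Slc38a2 (6.90%, beside 5.1% of all genes), with log2 fold changes of -0.72 and -0.46 and adjusted p of 0.819 and 0.967. The median log2 fold change, Blimp1-flox relative to WT, was 0.12 over members and 0.0012 over all tested genes. Of the members, 19 were positive (65.5%, beside 50.1% of all tested genes) and 10 negative. DESeq2 called 2 members (6.90%, beside 3.66% of all genes), and limma-voom with quality weights also called 2 (6.90%, beside 4.09%). In both tools these were Slc7a4 and Slc6a9, which were also the 2 tested members whose groups did not overlap (6.90%, beside 8.47% of all genes). That count was 6 without WT 1 (20.7%, beside 16.3% of all genes), 6 without Blimp1-flox 3 (20.7%, beside 14.5%) and 4 without Blimp1-flox 2 (13.8%, beside 16.5%).

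The intervals bound what the 8 libraries could have missed under the model with genotype alone. They do not account for B cell content, which is confounded with genotype here. With the B cell score, the log2 fold change of Slc38a9 was -0.39, below its interval of -0.33 to 0.35. For 13 of the 29 tested members the 95% interval of the difference lay within 1.5-fold in both directions. Slc38a10 had the narrowest, from 0.890-fold to 1.18-fold. Only 5 members had a log2 fold change of at least 0.5 in size, Slc7a4, Slc6a9, Slc1a4, Slc36a3 and Slc15a2, and the intervals of Slc1a4, Slc36a3 and Slc15a2 spanned 0. In bulk libraries a lower level in each cell and fewer cells that express the gene cannot be told apart.

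**Figure D2:**
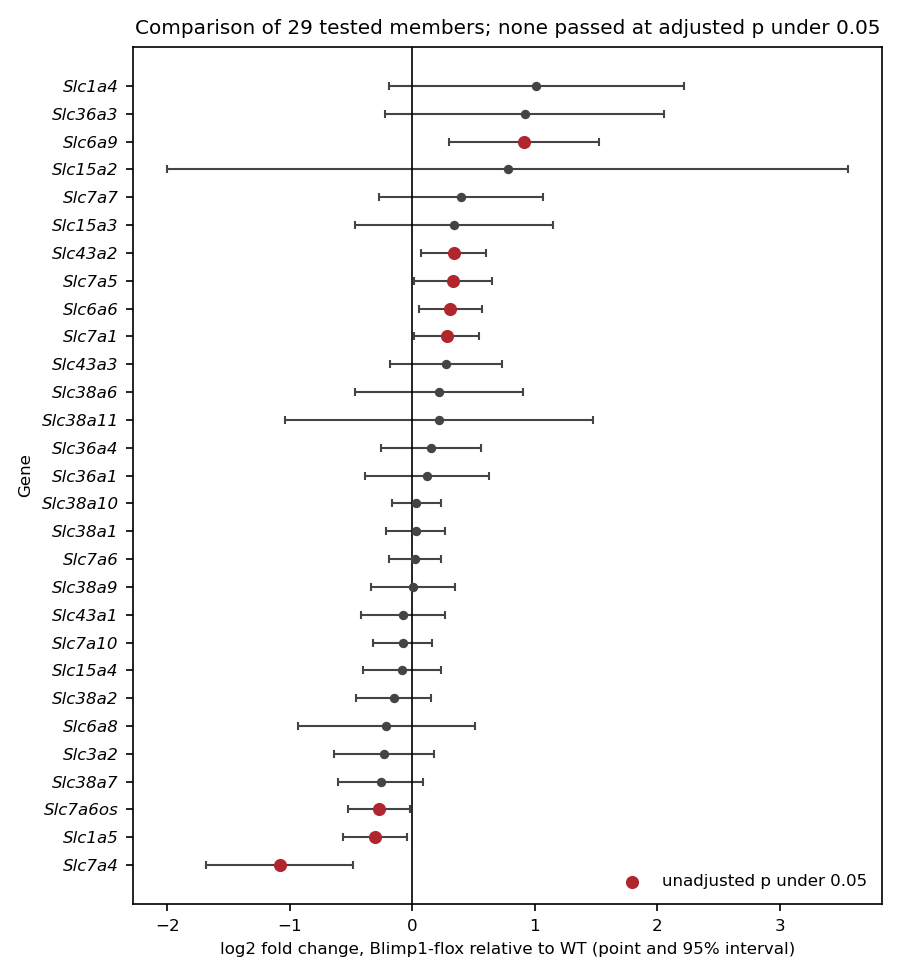
Log2 fold change of Blimp1-flox relative to WT for the 29 tested members (points), with 95% intervals from the edgeR fit (bars), and red points for an unadjusted p under 0.05. The 8 red points run from Slc7a4 at -1.08 to Slc6a9 at 0.91.

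Slc7a4 had the lowest fold change among tested members. It encodes a relative of the cationic amino acid transporters whose own transport activity is unclear, and lies on chromosome 16 from 17572018 to 17576671 (mm10). The WT libraries 1 to 4 held 6.055, 5.10, 7.77 and 8.32 CPM and the Blimp1-flox libraries 2.555, 4.20, 2.09 and 4.004 CPM. All WT libraries were above all Blimp1-flox libraries, by a narrow gap between WT 2 and Blimp1-flox 2. The means were 6.81 ± 1.495 and 3.21 ± 1.05 CPM (SD, n = 4), and the log2 fold change was -1.08 ± 0.28 (SE; edgeR adjusted p = 0.104, DESeq2 adjusted p = 0.0123, limma-voom adjusted p = 0.0460). In the edgeR fits that left out 1 library the log2 fold change stayed between -1.24 and -0.92, with an unadjusted p under 0.05 in 8 of 8. B cell markers were also higher in WT, most of all in WT 4, and with the B cell score as a model term the log2 fold change was -0.63 (adjusted p = 0.967). Without WT 4 and Blimp1-flox 3 it was -0.80 (adjusted p = 0.196).

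The pattern of Slc6a9 ran the other way. It encodes the glycine transporter GlyT1 and lies on chromosome 4 from 117835258 to 117869305 (mm10). The WT libraries held 6.78, 3.33, 4.92 and 2.39 CPM, and the Blimp1-flox libraries 8.64, 7.86, 7.84 and 8.48 CPM. The Blimp1-flox libraries were close together and all above WT, while the WT libraries were spread from WT 4, the lowest, to WT 1. The means were 4.35 ± 1.93 and 8.20 ± 0.414 CPM (SD, n = 4), and the log2 fold change was 0.91 ± 0.28 (SE; edgeR adjusted p = 0.171, DESeq2 adjusted p = 0.0498, limma-voom adjusted p = 0.0416). In the fits that left out 1 library it was 0.71 to 1.21, with an unadjusted p under 0.05 in 8 of 8. Adding the B cell score to the model gave 0.19 (adjusted p = 0.976). Of the length of Slc6a9, 1.41% overlaps exons of Ccdc24 on the other strand, a gene with 38 counts in all.

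The start regions of Slc6a9 and Slc1a4, 2 members with large fold changes that did not pass in edgeR, are shown. They were picked after the values were seen, because each holds letters that resemble a motif of interest for this genotype or pathway. Slc7a7 (log2 fold change 0.40, adjusted p = 0.554 in edgeR) has matches to both motifs searched and is not printed. A link between these letters and expression was not tested. RefSeq promoter windows (GRCm38.p6, from 250 bases before to 50 after a start site) were on hand for 24 of the 33 members. Slc7a4, whose fold change was the largest in size, had no window and could not be searched. The letters GNGAAAG, the core of the sequence that Blimp1 binds, were searched on both strands. They were found in 22.6% of all 32851 windows and at 25.3% of all genes with a window, and at 6 of the 24 members (25.0%), Slc6a9, Slc15a4, Slc38a5, Slc38a7, Slc38a9 and Slc7a7. Slc6a9 has 3 windows, and the 2 with a match follow, with the matching letters in capitals. The first, chr4:117835008-117835307 (plus strand), has the match on the opposite strand 21 bases after the start site, and the second, chr4:117849100-117849399 (plus strand), has it on the gene's strand 57 bases before the start site. These letters describe the windows and show no binding.
Slc6a9, first start: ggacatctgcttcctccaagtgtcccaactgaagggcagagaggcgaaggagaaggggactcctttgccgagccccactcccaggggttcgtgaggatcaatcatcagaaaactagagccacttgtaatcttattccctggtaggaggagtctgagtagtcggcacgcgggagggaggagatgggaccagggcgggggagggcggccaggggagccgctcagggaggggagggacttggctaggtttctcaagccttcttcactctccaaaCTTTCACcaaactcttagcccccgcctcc
Slc6a9, second start: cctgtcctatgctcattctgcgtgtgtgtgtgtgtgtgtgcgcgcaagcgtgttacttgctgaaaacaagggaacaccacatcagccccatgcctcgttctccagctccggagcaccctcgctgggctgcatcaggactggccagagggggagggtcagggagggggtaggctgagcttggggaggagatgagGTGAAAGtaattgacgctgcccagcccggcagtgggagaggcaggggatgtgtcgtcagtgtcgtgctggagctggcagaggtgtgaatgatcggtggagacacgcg

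The letters TGATGNAA stand for the C/EBP-ATF response element, through which the stress factor ATF4 acts on amino acid genes. They were also searched on both strands. They were found in 3.97% of all windows and at 4.51% of genes, and at 2 of the 24 members, Slc1a4 and Slc7a7. The window of Slc1a4, chr11:20332664-20332963 (minus strand), has the match on the opposite strand from 4 bases before the start site, shown in capitals.
Slc1a4: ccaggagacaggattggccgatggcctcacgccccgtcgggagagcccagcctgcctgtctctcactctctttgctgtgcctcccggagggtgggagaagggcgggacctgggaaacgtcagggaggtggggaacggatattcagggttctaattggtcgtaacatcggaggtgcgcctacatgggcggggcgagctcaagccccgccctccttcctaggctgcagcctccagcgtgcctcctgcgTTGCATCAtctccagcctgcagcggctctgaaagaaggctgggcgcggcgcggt

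Carriers of neutral amino acids at the cell surface came in several patterns. Slc1a4 (ASCT1, a carrier of alanine, serine and cysteine) held 29.8, 16.3, 36.0 and 6.38 CPM in WT 1 to 4 and 46.5, 44.99, 24.5 and 62.8 CPM in Blimp1-flox 1 to 4. The groups overlapped through Blimp1-flox 3, and WT 4, the library with the highest B cell markers, was lowest. Blimp1-flox relative to WT gave 1.01 ± 0.52 (log2, SE; adjusted p = 0.384 in edgeR), the highest among tested members, and with the B cell score in the model it was -0.15. Without WT 4 and Blimp1-flox 3 it was 0.91 with adjusted p = 0.121. The related Slc1a5 held 582, 720.3, 674 and 843 CPM in WT 1 to 4 and 527, 659, 515 and 581 CPM in Blimp1-flox 1 to 4, with a log2 fold change of -0.30 ± 0.12 (SE), at adjusted p = 0.249 in edgeR. Its groups overlapped through WT 1 and Blimp1-flox 2, WT 4 was highest, and with the B cell score as a model term the log2 fold change was 0.014.

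The pair Slc43a1 (LAT3) and Slc43a2 (LAT4) encodes facilitative carriers of branched-chain and other large neutral amino acids. Slc43a2 held 111, 105, 113 and 90.4 CPM in WT 1 to 4 and 146, 134, 103 and 149 CPM in Blimp1-flox 1 to 4. Blimp1-flox 3 lay among the WT values and the other Blimp1-flox libraries lay above them. The log2 fold change of Slc43a2 was 0.34 ± 0.12 (SE; edgeR adjusted p = 0.216), and it was 0.45 without Blimp1-flox 3 (adjusted p = 0.0775). Slc43a1 held 31.6 to 36.0 CPM in WT and 25.2 to 44.1 CPM in Blimp1-flox, with the highest value in Blimp1-flox 3, and a log2 fold change of -0.074. The third gene of the family, Slc43a3, which encodes a purine nucleobase carrier and is named here with its values seen, also peaked in Blimp1-flox 3 at 46.8 CPM, with the other libraries at 22.0 to 35.7 CPM.

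The glutamine carriers Slc38a1 and Slc38a2 had fold changes smaller than the spread between libraries. Slc38a1 (SNAT1) was at 182 ± 18.5 CPM in WT and 186 ± 23.6 CPM in Blimp1-flox (SD, n = 4), and the 95% interval of its difference ran from 0.864-fold to 1.20-fold. Slc38a2 (SNAT2), which cells induce when amino acids are short, was at 258 ± 47.8 and 232 ± 35.3 CPM (SD, n = 4), with an interval from 0.728-fold to 1.11-fold and a log2 fold change of -0.15, which was -0.46 with the B cell score as a model term. WT 1 was its highest library at 318 CPM and Blimp1-flox 1 its lowest at 186 CPM.

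The CD98 heavy chain Slc3a2 held 792, 532, 509 and 375 CPM in WT 1 to 4 and 426, 537, 485 and 436 CPM in Blimp1-flox 1 to 4. WT covered the wider range, with WT 1 above and WT 4 below all other libraries. Blimp1-flox relative to WT gave -0.23 ± 0.19 (log2, SE; adjusted p = 0.569 in edgeR), and it was -0.0034 without WT 1, -0.38 without WT 4 and -0.72 with the B cell score in the model. Its partner Slc7a5 (LAT1), the main carrier of leucine into activated T cells, held 58.9, 45.2, 49.5 and 33.8 CPM in WT 1 to 4 and 55.5, 54.1, 61.3 and 64.7 CPM in Blimp1-flox 1 to 4. Only WT 1 reached into the Blimp1-flox range. The log2 fold change of Slc7a5 was 0.33 ± 0.15 (SE; edgeR adjusted p = 0.291), and it was 0.20 without WT 4 and -0.17 with the B cell score in the model.

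Because the heavy and light chains work as pairs, their ratio per kilobase was also formed within each library. The ratio of Slc7a5 to Slc3a2 was 0.0627, 0.0716, 0.0818 and 0.0760 in WT and 0.1097, 0.0849, 0.1065 and 0.125 in Blimp1-flox. The groups did not overlap, although neither gene passed alone. Among 12362 other tested genes the ratio to Slc3a2 had groups that did not overlap in 3.27%, and 3 of 28 members were among them (10.7%), Slc7a5, Slc7a1 and Slc6a9. These ratios were looked at after the values were seen, and they share the high Slc3a2 value of WT 1. The other light chains, Slc7a6, Slc7a7, Slc7a8 and Slc7a10, had ratios with groups that overlapped.

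Slc7a10 made up most of the light chain level. It accounted for 73.7% to 83.4% of the summed CPM per kilobase of the 5 light chain genes in the 8 libraries. It held 228, 265, 227 and 275 CPM in WT 1 to 4 and 280.2, 239.8, 219 and 205 CPM in Blimp1-flox 1 to 4, with groups that overlapped and a log2 fold change of -0.077 (95% interval 0.802-fold to 1.12-fold). Slc7a10 lies on chromosome 7 from 35186385 to 35201111 (mm10), and 234 bases of its length of 1950 bases overlap exons of Lrp3 on the other strand. Lrp3 had 2060 counts over all libraries against 45613 for Slc7a10. No source used here gives the strand setting of the counting, so reads of this shared stretch are uncertain. Slc7a6 (y+LAT2), which exchanges cationic for neutral amino acids, was the steadiest member, at 65.4 ± 3.31 and 66.6 ± 6.16 CPM (SD, n = 4). Its relative Slc7a7 (y+LAT1) was at 2.43 to 4.68 CPM in WT and 3.06 to 6.90 CPM in Blimp1-flox, and 9.10% of its length overlaps Oxa1l, which had 9444 counts. Slc7a8 was near the floor with 68 counts in all, 23 of them in WT 4. The other heavy chain, Slc3a1 (rBAT), known from kidney and gut, had 41 counts, and 26.3% of its length overlaps Prepl.

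**Figure D3:**
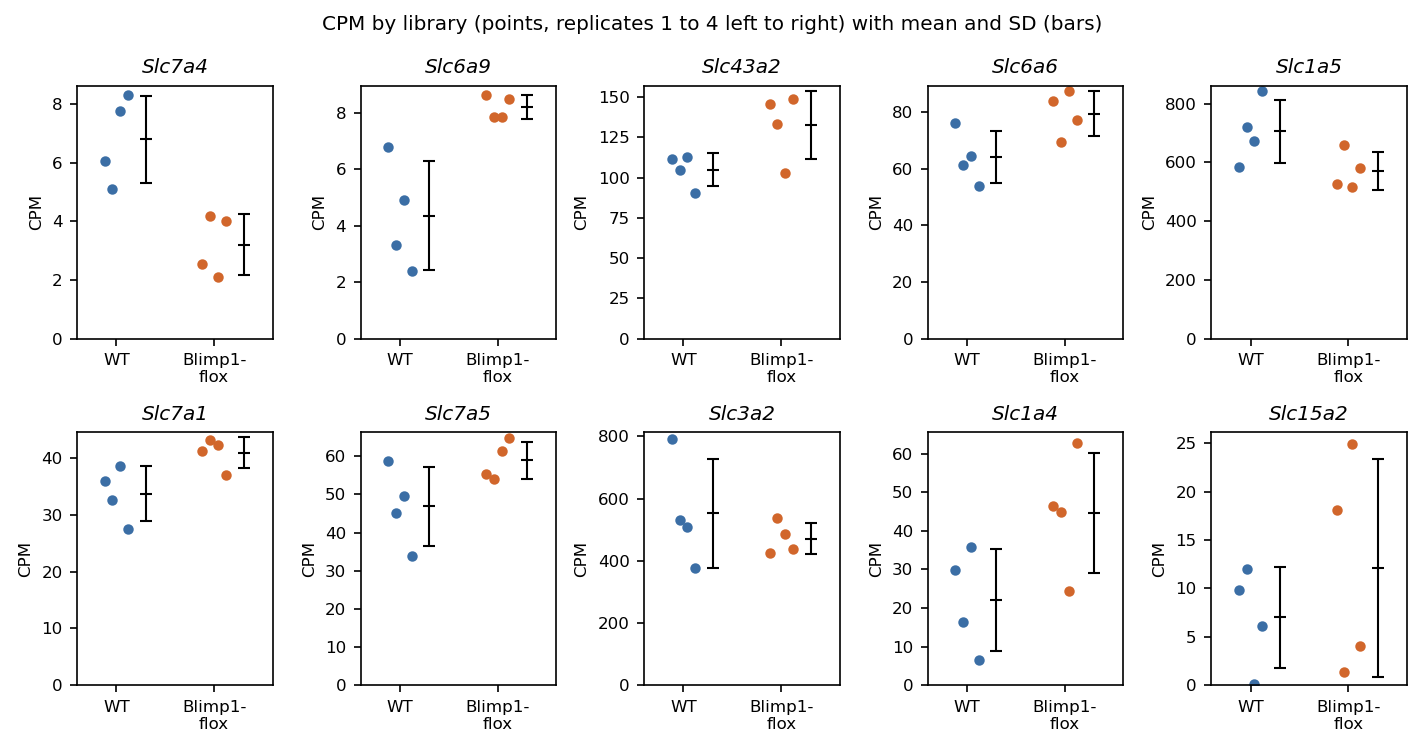
CPM of 10 members in each library (points), with the mean and SD of each group of 4 (bars), on axes that start at 0. Slc7a4 and Slc6a9 are the panels without overlap between the groups, and the WT values of Slc1a4 and both groups of Slc15a2 are widely spread.

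Among carriers of cationic amino acids, Slc7a1 (CAT1, the main arginine and lysine carrier of T cells) held 36.0, 32.7, 38.7 and 27.5 CPM in WT 1 to 4 and 41.2, 43.3, 42.3 and 37.0 CPM in Blimp1-flox 1 to 4. The groups overlapped between WT 3 and Blimp1-flox 4. Blimp1-flox relative to WT gave 0.28 ± 0.12 (log2, SE; adjusted p = 0.282 in edgeR), and 0.14 in limma-voom (adjusted p = 0.431). Slc7a3 (CAT3) was near the floor, with 11, 9, 11 and 8 counts in the WT and 2, 4, 5 and 5 counts in the Blimp1-flox libraries. The CPM values of its groups did not overlap, but it was below the filter, and in a fit with no filter its adjusted p was 0.505.

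The Slc6 members expressed here carry glycine, taurine or creatine. Besides Slc6a9, the taurine transporter Slc6a6 held 76.2, 61.4, 64.6 and 54.1 CPM in WT 1 to 4 and 83.9, 69.5, 87.7 and 77.2 CPM in Blimp1-flox 1 to 4. WT 1 lay within the Blimp1-flox range and the other WT libraries below it. Blimp1-flox relative to WT gave 0.31 ± 0.12 (log2, SE; adjusted p = 0.234 in edgeR), and 0.029 with the B cell score as a model term. The creatine transporter Slc6a8 was at 2.82 ± 0.873 and 2.45 ± 0.745 CPM (SD, n = 4).

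None of the members that act at the lysosome had an unadjusted p under 0.05. Slc38a9, the arginine sensor that signals to mTORC1, was at 18.9 ± 3.01 CPM in WT and 19.0 ± 2.82 CPM in Blimp1-flox (SD, n = 4), with an interval from 0.794-fold to 1.27-fold. Slc38a7 (SNAT7), which exports glutamine from lysosomes, was at 17.2 to 27.4 CPM in WT and 17.2 to 21.0 CPM in Blimp1-flox, with a log2 fold change of -0.26 (adjusted p = 0.451 in edgeR). Slc15a4, a histidine and peptide carrier needed for endosomal nucleic acid sensing in other immune cells, held 25.8 to 30.6 CPM in WT. Blimp1-flox 3 was at 19.3 CPM and the other Blimp1-flox libraries at 28.2 to 30.4 CPM. Its relative Slc15a3 ranged from 1.43 to 5.30 CPM in WT and from 3.02 to 6.08 CPM in Blimp1-flox, and 3.71% of its length overlaps Tmem132a. The proton-coupled carriers Slc36a1 (PAT1) and Slc36a4 (PAT4) had log2 fold changes of 0.12 and 0.15, with adjusted p of 0.840 and 0.728 in edgeR.

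Slc15a2 (PEPT2), a high-affinity carrier of small peptides known mainly from kidney and brain, varied more between libraries than any other tested member. It had 244, 279, 3 and 163 counts in WT and 297, 32, 692 and 95 counts in Blimp1-flox. In CPM these were 9.85, 12.05, 0.132 and 6.08, and 18.1, 1.33, 24.9 and 4.05. High and low libraries occurred in both groups, so the range within a genotype was far wider than the gap between the means. On the log2 scale the difference was 0.78 with a 95% interval from -2.0 to 3.56 (edgeR adjusted p = 0.782), which leaves a difference of several-fold in either direction undetected. The SD within groups, on the log2(CPM + 1) scale, was 1.62 for Slc15a2, and 0.0324% of all tested genes had a larger one. For Slc1a4 it was 0.837, with 0.607% of genes larger, and for Slc15a3 0.510, with 3.46% larger. The median was 0.246 over the tested members and 0.196 over all tested genes.

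**Figure D4:**
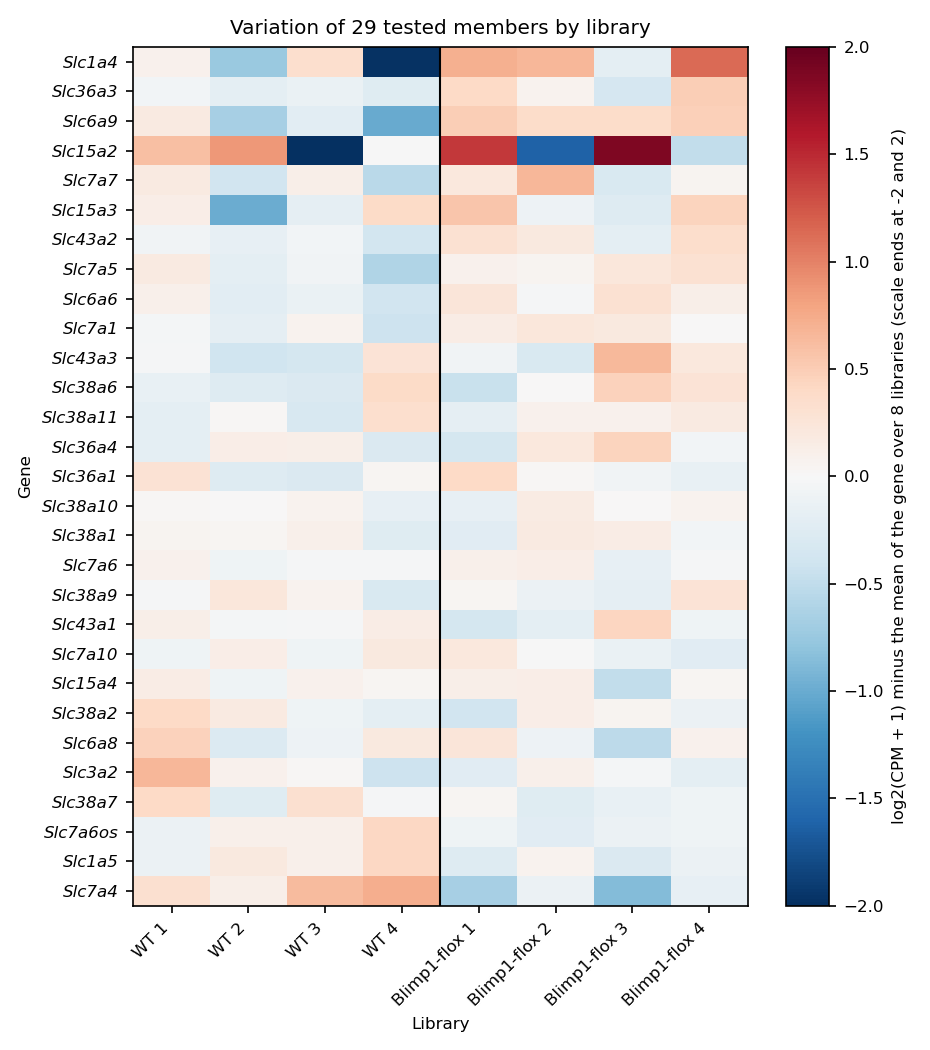
Deviation of each tested member from its own mean over the 8 libraries on the log2(CPM + 1) scale, with genes ordered by log2 fold change (highest on top), red above and blue below the mean, and colours that end at -2 and 2. Slc15a2 is low in WT 3 and Blimp1-flox 2, and Slc1a4 is low in WT 4.

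The remaining members are given together. Slc38a10 was at 256 ± 17.6 CPM in WT and 262.3 ± 23.9 CPM in Blimp1-flox (SD, n = 4) and Slc38a6 at 2.46 to 4.55 and 2.13 to 4.86 CPM. Slc38a11, Slc36a3 and Slc38a5 were all at or below 1.235 CPM in each library. Slc36a3 had a log2 fold change of 0.92 ± 0.53 (SE), at adjusted p = 0.414 in edgeR on 111 counts in all. Slc38a5 (SNAT5) had 51 counts, 12 in Blimp1-flox 1, 24 in Blimp1-flox 4, 10 in WT 4 and 0 in WT 2, WT 3 and Blimp1-flox 3. Blimp1-flox 1 and 4 were also the libraries with the highest myeloid marker sums, 118 and 105.0 CPM, and the part of such cells in the Slc38a5 counts was not tested. Slc7a6os had a log2 fold change of -0.27 ± 0.12 (SE), at adjusted p = 0.282 in edgeR, with WT 4 highest at 71.4 CPM.

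Genes that work with these carriers were read from the same fit, in which 50.1% of all tested genes had a positive fold change. None of the 34 tested genes of mTORC1 amino acid sensing was called, with 18 positive and 16 negative fold changes and a median of 0.032. The genes with the lowest unadjusted p were Sec13 (log2 fold change 0.27), Tbc1d7 (0.43) and Rragc (0.18), a Rag GTPase that docks mTORC1 on the lysosome. Of 18 tested genes of the amino acid response through the kinase GCN2 and ATF4, 0 were called and 13 were positive. Psat1, an enzyme of serine synthesis, had a log2 fold change of 0.53 ± 0.12 (SE), at adjusted p = 0.0869 in edgeR, with 95.2 to 130 CPM in WT and 143 to 186 CPM in Blimp1-flox. Ppp1r15a and Atf4 itself pointed down, with log2 fold changes of -0.46 (adjusted p = 0.104) and -0.29 (adjusted p = 0.179). The list thus held fold changes of both signs, with a median of 0.068.

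No gene passed among 20 cytosolic aminoacyl-tRNA synthetases (16 positive, median 0.062), 12 genes of glutamine, glutamate and glutathione enzymes (7 positive, median 0.075) or 8 tested amino acid breakdown enzymes (4 positive, median 0.080). The lowest unadjusted p in these lists belonged to Eprs (-0.21), to Gss, the glutathione synthetase (0.48), and to Bcat1 (0.32), with adjusted p of 0.276, 0.167 and 0.378. Of 10 tested amino acid carriers of other families, 9 were positive with a median of 0.16 and none was called. The mitochondrial carrier of cationic amino acids Slc25a29 had the lowest unadjusted p there, at 4.28 to 6.27 CPM in WT and 6.65 to 8.46 CPM in Blimp1-flox, with a log2 fold change of 0.61 (adjusted p = 0.191).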

How the data were processed

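Messenger RNA libraries of sorted TFR cells (KAPA mRNA HyperPrep, per the labels) gave 4 WT and 4 Blimp1-flox samples. Per the submitters' processing notes, the authors aligned reads with STAR 2.5.2b to mm10 and counted them with featureCounts of Subread 1.5.1. The deposited table holds raw counts, not normalized. No source used here gives the gene annotation or the strand setting. The deposited exon length of each gene served only for CPM per kilobase.

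Groups and replicate numbers came from the sample titles. Genes were kept with filterByExpr and scaled by TMM. The main test was quasi-likelihood in edgeR 4.0.16 (R 4.3.3; robust dispersion and fit) on genotype alone, with Benjamini-Hochberg adjustment over 12363 genes. Standard errors and 95% intervals were derived from the F statistic. Unless another tool is named, adjusted p-values come from this test. CPM were computed on TMM-scaled totals of tested genes. With TMM factors of 0.976 to 1.02 and 16425538 counts or more per library, counting error was smallest for abundant members. It was larger where a library held few counts, such as 3 for Slc15a2 in WT 3, 33 for Slc15a3 in WT 2 and 42 for Slc7a4 in Blimp1-flox 1.

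The members and lists were chosen with earlier results of these data known. Members were named if they passed, were known lymphocyte carriers, had the 5 highest or lowest fold changes or an unadjusted p under 0.05. All other members were added after their values were seen, as were the ratios to Slc3a2 and the motif search. From each list of genes that work with these carriers, those with the lowest unadjusted p were named. From the cell type lists the called genes were named. Alternatives were other scalings and filters, DESeq2 1.42.0, limma-voom (limma 3.58.1) with quality weights, a replicate block, a B cell score (mean log2 CPM of 15 markers), libraries left out and an adjusted p under 0.1. On data simulated for Blimp1-flox against WT with 12363 genes, the edgeR test found 42.3% of the altered genes at 1.5-fold, 75.6% at 2-fold and 93.9% at 4-fold. Of its calls, 7.84% were false. No simulated library deviated as a whole, as WT 4 and Blimp1-flox 3 did, so these rates may not hold for the measured libraries.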

Additional observations from a re-analysis of the deposited data

Results flagged for a closer look

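In Slc3a1, the heavy chain gene near the count minimum, WT 3 held 0.395 CPM and the other WT libraries 0.216 to 0.242 CPM. The gap between WT 3 and its nearest neighbour was 0.854 of the whole range of the group, above the 95% critical value of the Dixon test for 4 libraries. These values rest on 9 counts in WT 3 and 5 or 6 in the others. It was the 1 case in 66 groups of 4 libraries examined, and chance alone gives about 1 in 20.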

How the results depend on the processing

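The number of members called was 0 in the edgeR fits with other scalings, filters and left-out libraries, with a replicate block, with a B cell score and at an adjusted p under 0.1. It was 2 with DESeq2 and 2 with limma-voom with quality weights. Leaving out 1 library at a time gave 0 to 0 members called. It gave 4 to 8 members at an unadjusted p under 0.05, beside 9.98% to 19.3% of all genes. Called genes were then 20 to 127 (127 without WT 1, 94 without Blimp1-flox 3, 27 without WT 2, 23 without Blimp1-flox 4 and 20 without Blimp1-flox 1). Over all genes the count of 62 became 453 with DESeq2, 506 with limma-voom, 157 without WT 4 and Blimp1-flox 3, 1 with a B cell score and 182 at an adjusted p under 0.1. The count of members at an unadjusted p under 0.05 was 2 with the B cell score, Slc3a2 (-0.72) and Slc38a2 (-0.46), and neither was among the 8. Without WT 4 and Blimp1-flox 3, 6 members had groups that did not overlap (Slc43a2, Slc43a1, Slc1a4, Slc6a9, Slc7a4 and Slc36a3), which is 20.7% beside 19% of all tested genes. With the B cell score, where 9 members changed sign, the log2 fold changes were 0.014 for Slc1a5, -0.080 for Slc38a10, 0.11 for Slc7a10, -0.13 for Slc38a1, 0.027 for Slc7a6os, -0.17 for Slc7a5, -0.15 for Slc1a4, -0.39 for Slc38a9 and -0.032 for Slc36a4. Without WT 4 and Blimp1-flox 3, those that changed sign were -0.0062 for Slc38a10, 0.0084 for Slc7a10, -0.087 for Slc38a1, 0.045 for Slc15a4, -0.028 for Slc38a9, -0.075 for Slc36a4 and 0.014 for Slc6a8. With limma-voom Slc38a1 was at -0.058. Leaving out 1 library gave ranges that cross 0 for Slc38a10 (-0.018 to 0.089), Slc38a1 (-0.042 to 0.10), Slc7a6 (-0.019 to 0.083), Slc43a1 (-0.27 to 0.022), Slc15a4 (-0.15 to 0.051), Slc38a9 (-0.095 to 0.094), Slc36a1 (-0.032 to 0.27) and Slc38a11 (-0.067 to 0.79). The cause of these shifts was not tested.

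Replicate numbers matched between the groups in the titles, but the correlations of same-numbered libraries were 0.10, 0.153, -0.102 and -0.108, so the numbers were not taken as pairs. With a replicate block 52 genes and 0 members were called. Depth limits members with few counts, and the untested Slc7a3, Slc7a8, Slc38a5 and Slc3a1 had adjusted p of 0.505 to 0.737 in a fit with no filter.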
